A study of Mus musculus with 24 samples.

Results

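The circadian clock genes of the mouse kidney were examined in animals with an induced deletion of Pex5 in the renal tubule. Pex5 encodes the receptor that carries proteins into peroxisomes. The 10 genes Arntl, Clock, Npas2, Per1, Per2, Per3, Cry1, Nr1d1, Dbp and Tef were chosen by symbol, out of 55335 genes counted, as transcription factors and repressors of the clock and its nearest output genes. RNA of whole kidneys was sequenced from 24 mice on the C57BL/6J background, 6 in each of 4 groups. Conditional knockout males (cKOm) and females (cKOf) carried Pex5lox/lox with the transgenes Pax8-rtTA and LC1, which allow doxycycline (DOX) to switch on Cre recombinase in tubular cells, so that other cells of the kidney kept the gene. Control males (Ctrlm) and females (Ctrlf) were Pex5lox/lox littermates without the transgenes, and all 4 groups drank DOX for 2 weeks from an age of 8 weeks. Kidneys were taken 4 weeks after DOX ended, at an age of 14 weeks. The labels give the hour of the experiments as zeitgeber time (ZT) 3 and that of tissue collection as ZT 9, counted from lights on at ZT 0 in a cycle of 12 hours of light, with lights off at ZT 12.

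The clock of a mammalian cell is a loop of transcription. ARNTL (also called BMAL1) pairs with CLOCK or its relative NPAS2, and the pair binds E-box sequences and switches on the Per and Cry genes, whose proteins return to the nucleus and block the pair. The same pair drives Nr1d1, which encodes the repressor REV-ERBα and holds Arntl, Npas2 and Cry1 down through ROR elements, and Dbp, which together with the related TEF binds D-box sequences in Per3 and many output genes. In mouse tissues other than the brain, RNA of Arntl and Npas2 is high around the end of the night and low toward the end of the day. RNA of Nr1d1, Dbp and then of the Per genes is high in the course of the day and toward dusk. In the kidney, clock output includes genes of sodium and water transport.

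The reads on genes numbered 19376152 to 28470831 per kidney. Levels are given as CPM, which are counts scaled to a common library size. The summed level of 5 proximal tubule markers, which the labelled organ should hold, was 7596 to 8612 CPM in Ctrlm and 5928 to 6811 in cKOm mice without overlap, with 3 of 5 markers lower in cKOm mice, and 7534 to 8495 in Ctrlf and 6651 to 7871 CPM in cKOf mice. Pex5, counted over all its exons and in all cell types, was 49.1 to 62.8 CPM in Ctrlm and 41.8 to 47.3 CPM in cKOm mice without overlap (log2 fold change -0.31, standard error 0.08, edgeR adjusted p = 0.0219). In females it was 43.0 to 61.7 CPM in Ctrlf and 38.0 to 48.5 CPM in cKOf mice, and the groups overlapped (log2 fold change -0.21, standard error 0.08, edgeR adjusted p = 0.177). The paper reports some full-length Pex5 RNA and PEX5 protein left in kidneys of cKOf mice, and proposes that excision was incomplete there. In cKOm mice it found almost no PEX5 protein. All 10 of 10 hepatocyte markers had counts, with a summed level of 90.4 to 956 CPM in Ctrlm, 95.7 to 501 in cKOm, 54.7 to 120 in Ctrlf and 49.7 to 119 in cKOf mice. The highest of them, Alb, ran from 15.1 to 662 CPM, and Ahsg and Serpina3k were at 0 in at least some kidneys. The median of the summed level was 641 CPM in Ctrlm and 127 CPM in cKOm mice. In males 3 of 10 hepatocyte markers were lower in cKOm mice and 1 higher (edgeR), beside 4.90% and 4.14% of all genes. In females 0 of 10 passed, beside 0.851% of all genes.

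On GRCm38 the activators lie at chr7:113207465-113314126 (Arntl), chr5:76209868-76304792 (Clock) and chr1:39193731-39363236 (Npas2). The repressors lie at chr11:69095217-69109960 (Per1), chr1:91415982-91459324 (Per2), chr4:151003652-151044665 (Per3), chr10:85131700-85185064 (Cry1) and chr11:98767932-98775333 (Nr1d1). The D-box binding factors lie at chr7:45705088-45710203 (Dbp) and chr15:81802421-81826863 (Tef). Reads were counted on their exons. The exons of Nr1d1 share 263 bases with Thra on the opposite strand, which is 8.55% of its exon length, and those of Dbp share 539 bases with Sphk2, or 18.01%. Tef shares 193 bases with Gm17597 and Arntl 33 bases with Gm45355. Whether the counting used strand is not given in the sources used here, so these genes can hold reads of their neighbours.

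Promoter windows of 300 bases, from 250 before to 50 after a start site, were available from RefSeq (GRCm38.p6) for 9 of the 10 genes, in 14 windows. They were searched on both strands for the E-box CACGTG, the D-box TTACGTAA or TTATGTAA, and the ROR element TAGGTCA or TGGGTCA, and no match overlapped another. The E-box was found in windows of 3 of 9 genes, Cry1, Per1 and Tef, beside 7.15% of 32851 windows of all genes. The D-box was found at 2 places in the window of Per3, beside 1.06% of all windows, and the ROR element in a window of Arntl, beside 6.45%. These shares count windows and not genes, and a gene with several windows has more places for a match. A match of letters is a description and does not show that a factor binds. The stretches with a match are shown 5′ to 3′ in the direction of the gene, because these are the elements through which the 3 arms of the loop act, with the motif in capitals.

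Cry1 E-box, chr10:85185082-85185141, minus strand, 60 bases before the start: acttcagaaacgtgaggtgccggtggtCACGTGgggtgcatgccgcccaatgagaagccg
Per1 E-box, chr11:69098756-69098815, plus strand, 166 bases before the start: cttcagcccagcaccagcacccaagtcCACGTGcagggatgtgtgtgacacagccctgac
Tef E-box of one window, chr15:81802519-81802578, plus strand, 127 bases before the start: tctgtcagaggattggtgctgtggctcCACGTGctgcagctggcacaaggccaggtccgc
Tef E-box of another window, chr15:81811249-81811308, plus strand, 138 bases before the start: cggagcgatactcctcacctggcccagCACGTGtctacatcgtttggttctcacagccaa
Per3 D-boxes, chr4:151044789-151044897, minus strand, 205 and 158 bases before the start: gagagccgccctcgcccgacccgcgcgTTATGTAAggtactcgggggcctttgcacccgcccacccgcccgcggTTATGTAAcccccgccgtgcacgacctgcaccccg
Arntl ROR element, chr7:113207533-113207555, plus strand, within the bases after the start: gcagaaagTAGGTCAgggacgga

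To compare the genes with each other, levels were divided by exon length. This is the merged length of all annotated exons of a gene, and the transcripts in use can be shorter. Nr1d1 had the highest mean level, 50.5 ± 11.5 CPM per kb (SD, n = 24 kidneys), followed by Dbp with 36.9 ± 10.9 and Tef with 34.3 ± 5.71 CPM per kb. The Per genes and Clock formed a middle tier, with 7.41 ± 2.63 CPM per kb for Per2, 6.75 ± 3.03 for Per1, 4.23 ± 1.09 for Per3 and 4.07 ± 0.825 for Clock. Cry1 with 0.845 ± 0.336, Arntl with 0.695 ± 0.326 and Npas2 with 0.271 ± 0.231 CPM per kb were lowest. The steps from Tef to Per2, from Clock to Cry1 and from Arntl to Npas2 held in 24 of 24 kidneys, and those from Nr1d1 to Dbp and from Per1 to Per3 in 22. Within the tiers neighbours exchanged places, since Dbp exceeded Tef in 13 kidneys, Per2 exceeded Per1 in 16, Per3 exceeded Clock in 10 and Cry1 exceeded Arntl in 15 of 24. Npas2 rested on 6 to 110 reads per kidney, Cry1 on 20 to 140 and Arntl on 40 to 273, against 2230 to 4883 reads for Nr1d1.

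**Figure D1:**
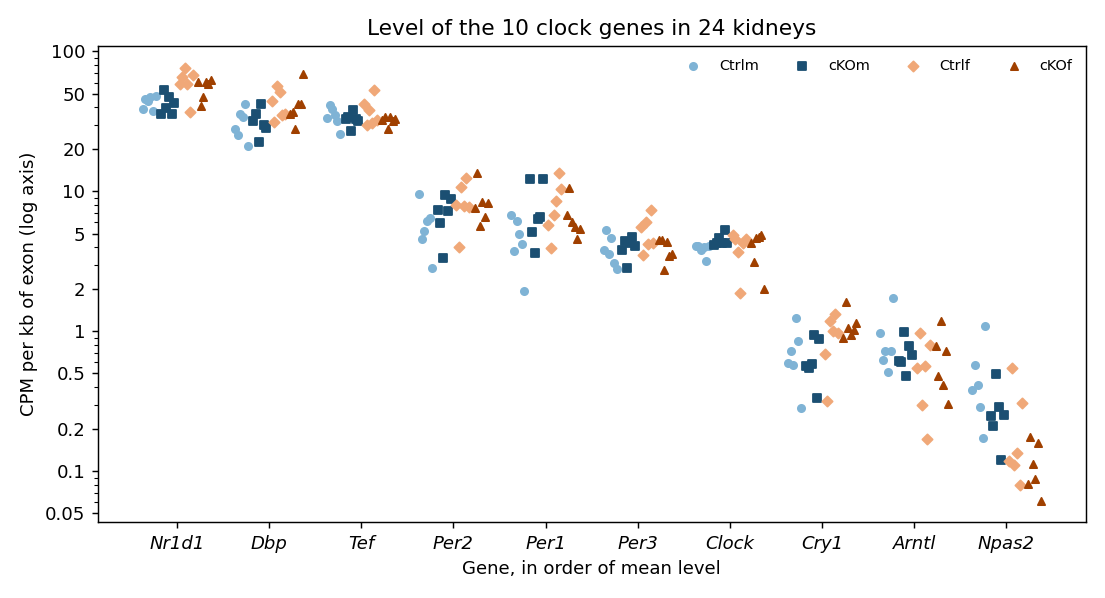
Level of each clock gene in CPM per kb of exon (log axis) in each of 24 kidneys, with colour and shape for the group and genes in order of mean level. Nr1d1, Dbp and Tef stand above the other 7 genes in every kidney, and Cry1, Arntl and Npas2 stand below them.

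RNA of Dbp, Nr1d1 and Per2, which ARNTL drives, was above that of Arntl itself in every kidney. Per kb, Dbp exceeded Arntl in 24 of 24 kidneys, by a ratio of 12.3 in Ctrlm replicate 6, a median of 54.8 and 230 in cKOf replicate 6. Nr1d1 exceeded Arntl by 28.0 to 260, with a median of 78.4, and Per2 exceeded it by 1.64 to 73.5, with a median of 9.85. Per2 was above Cry1 by 4.95 to 21.7 and below Dbp, which exceeded it by 2.74 to 8.45, in the same 24 kidneys. Both hours in the labels fall in the light phase, and per kb every kidney showed this order of Dbp and Nr1d1 over Per2 and of Per2 over Arntl. The lowest ratio of Per2 to Arntl, 1.64 in Ctrlm replicate 6, depends on the exon lengths used. The phase of each gene was not tested, because all kidneys carry the same labels for the hour and a level at a single hour does not separate a gene's phase from its mean level.

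No clock gene passed the threshold for a genotype difference in either sex. Of the 10 genes, 0 had an adjusted p under 0.05 in males, where 9.05% of 16092 tested genes did, and 0 in females, where 0.851% did (edgeR, quasi-likelihood test). Before adjustment, 1 of 10 had a p under 0.05 in males, Per1, against 25.1% of all genes, and 1 in females, Per3, against 6.73%. limma-voom and DESeq2 also called 0 of 10 in each sex. The median log2 fold change of the 10 genes was -0.01 in males and -0.08 in females, beside 0.01 and 0.00 over all tested genes. As all tubular, vascular and interstitial cells are pooled in these samples, fewer cells of a type and less RNA per cell cannot be told apart. The genotype comparisons of the 2 sexes share no mice. As cKOf mice kept some PEX5, a difference between the sexes cannot be told apart from a difference in the extent of deletion.

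Among the activators, Npas2, which can stand in for CLOCK, had the lowest log2 fold change in both sexes. It was 0.835, 1.90 and 5.23 CPM (lowest, median and highest of 6) in Ctrlm, 0.580, 1.20 and 2.36 in cKOm, 0.384, 0.609 and 2.61 in Ctrlf and 0.296, 0.480 and 0.841 CPM in cKOf mice. The groups of each sex overlapped, with Ctrlm replicate 6 and Ctrlf replicate 2 far above the median of their groups. The log2 fold change was -0.86 in males (95% interval -1.77 to 0.04, edgeR adjusted p = 0.348) and -0.92 in females (-1.90 to 0.06, edgeR adjusted p = 0.357). Without Ctrlm replicate 6 the male value was -0.49, and without Ctrlf replicate 2 the female value was -0.40. Arntl was 3.85, 5.45 and 12.98 CPM in Ctrlm, 3.62, 4.85 and 7.49 in cKOm, 1.28, 4.18 and 7.34 in Ctrlf and 2.27, 4.53 and 8.96 CPM in cKOf mice. Its log2 fold change was -0.34 in males (-1.06 to 0.37, edgeR adjusted p = 0.715) and 0.22 in females (-0.50 to 0.95, edgeR adjusted p = 0.836). Without Ctrlm replicate 6 the male value of Arntl was -0.067. These intervals leave room for a change by more than 1 on the log2 scale for Npas2 in both sexes and for Arntl in males.

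Clock, the partner of ARNTL, was the only member whose male groups did not overlap, against 7.38% of all tested genes, and in females 0 of 10 had groups apart, against 0.559%. It was 43.5, 55.1 and 56.2 CPM in Ctrlm and 56.8, 59.1 and 73.0 CPM in cKOm mice, a gap narrower than the spread within either group (p = 0.00216 in the two-sided exact permutation test, whose smallest possible value this is). Across all 4 groups the model put the log2 fold change at 0.22 (-0.15 to 0.59, edgeR adjusted p = 0.631). In females the levels were 25.7, 60.4 and 66.8 CPM in Ctrlf and 27.6, 61.5 and 67.1 CPM in cKOf mice, with a log2 fold change of 0.00 (-0.38 to 0.37, edgeR adjusted p = 0.996). A lone female of each genotype, Ctrlf replicate 4 and cKOf replicate 6, held the low values.

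Per1, a repressor that also answers to glucocorticoids and to acute stimuli, was 10.9, 25.8 and 38.1 CPM in Ctrlm and 20.3, 36.3 and 69.4 CPM in cKOm mice, with 5 of 6 cKOm mice above the median of Ctrlm. Its log2 fold change in males was 0.74 (0.12 to 1.37, unadjusted p = 0.0223, edgeR adjusted p = 0.202), and the exact permutation test gave p = 0.113. The value was 0.56 without cKOm replicate 1, the highest of its group (edgeR unadjusted p = 0.0821). Without cKOm replicate 6 the edgeR adjusted p was 0.429. In females Per1 was 22.2, 43.4 and 75.7 CPM in Ctrlf and 25.9, 32.7 and 59.2 CPM in cKOf mice, with a log2 fold change of -0.34 (-0.96 to 0.28, edgeR adjusted p = 0.668). Per1 thus lay on opposite sides of 0 in the 2 sexes, and the difference between the sexes was -1.08 (-1.96 to -0.20, unadjusted p = 0.0184), with an adjusted p of 0.243 for the interaction by edgeR. In this test, 0 of 10 clock genes passed, where 2.31% of all genes did, and Per1 was the only 1 of 10 with an unadjusted p under 0.05, against 13.4% of all genes.

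Per2 was 16.6, 33.3 and 56.3 CPM in Ctrlm, 19.7, 42.8 and 55.3 in cKOm, 23.4, 46.7 and 73.1 in Ctrlf and 33.0, 46.4 and 79.3 CPM in cKOf mice. The groups overlapped over most of their range, and the log2 fold change was 0.28 in males (-0.26 to 0.82, edgeR adjusted p = 0.687) and -0.02 in females (-0.56 to 0.51, edgeR adjusted p = 0.981). Per3, whose promoter holds the D-boxes shown above, was 26.6, 35.5 and 51.1 CPM in Ctrlm and 27.1, 40.2 and 45.5 CPM in cKOm mice, with a log2 fold change of 0.06 (-0.30 to 0.41, edgeR adjusted p = 0.926). In females Per3 was 33.6, 47.7 and 71.2 CPM in Ctrlf and 26.6, 38.0 and 43.0 CPM in cKOf mice, so that 0 of 6 cKOf mice exceeded the median of Ctrlf. Its female log2 fold change was -0.43 (-0.78 to -0.08, unadjusted p = 0.0183, edgeR adjusted p = 0.180), and the exact permutation test gave p = 0.0887. Cry1 was 0.951, 2.19 and 4.15 CPM in Ctrlm, 1.12, 1.92 and 3.13 in cKOm, 1.06, 3.31 and 4.48 in Ctrlf and 2.97, 3.45 and 5.37 CPM in cKOf mice. Its log2 fold change was -0.15 in males (-0.79 to 0.49, edgeR adjusted p = 0.883) and 0.27 in females (-0.35 to 0.89, edgeR adjusted p = 0.752).

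**Figure D2:**
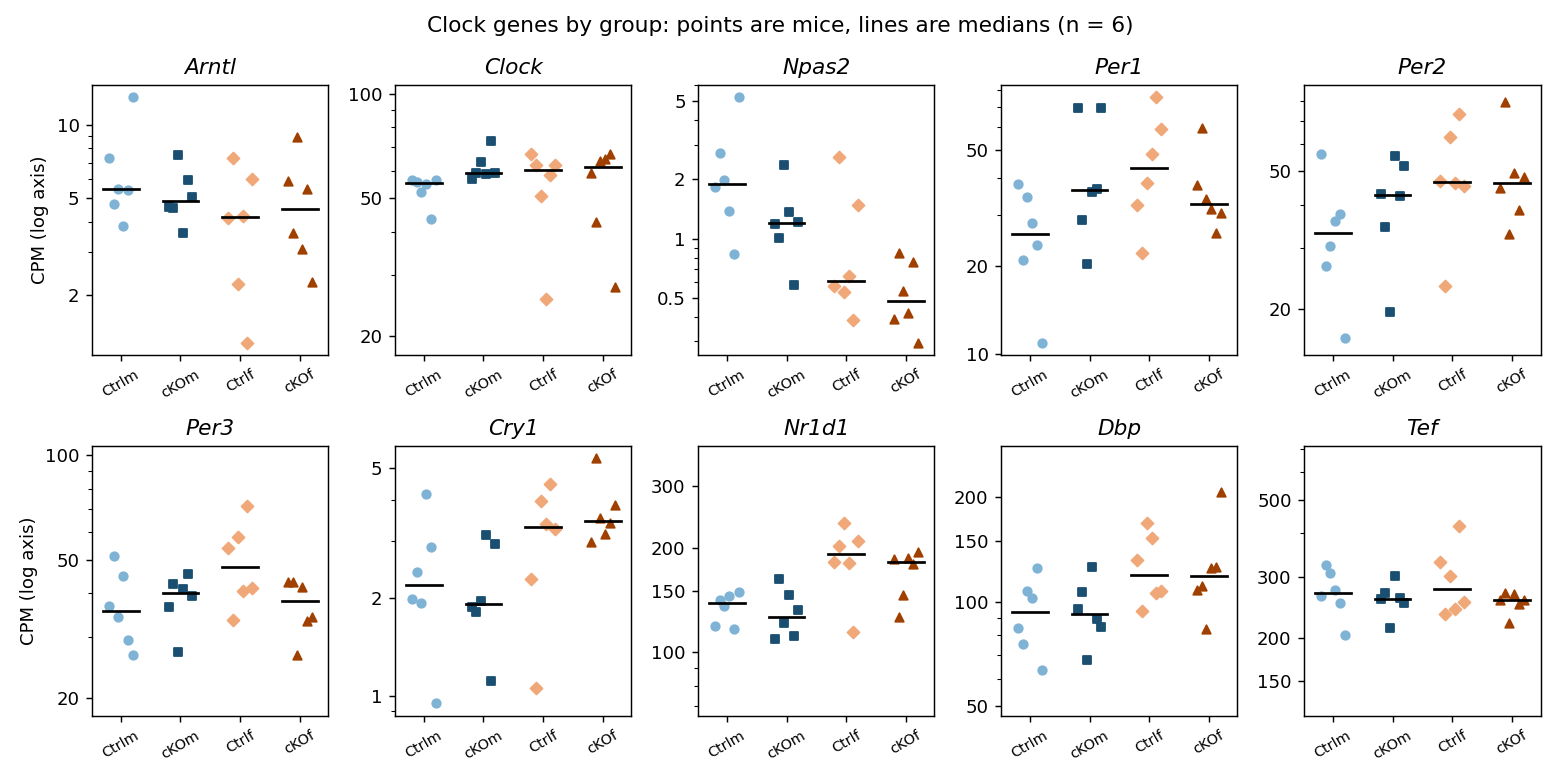
CPM of each clock gene (log axis) by group, with a point for each of 6 mice and a line at the group median. The cKO and Ctrl points of a sex overlap in every panel except Clock in males, where the lowest cKOm mouse (56.8 CPM) lies just above the highest Ctrlm mouse (56.2 CPM).

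Among the 3 genes with the highest levels, Tef and Nr1d1 had the narrowest intervals of all 10 genes. Nr1d1, the repressor of Arntl, was 116, 139 and 149 CPM in Ctrlm, 109, 126 and 162 in cKOm, 114, 192 and 236 in Ctrlf and 126, 182 and 194 CPM in cKOf mice. Its log2 fold change was -0.05 in males (-0.32 to 0.23, edgeR adjusted p = 0.921) and -0.14 in females (-0.42 to 0.13, edgeR adjusted p = 0.686). Dbp was 63.7, 93.2 and 125 CPM in Ctrlm, 67.7, 92.2 and 126 in cKOm, 93.9, 120 and 169 in Ctrlf and 83.4, 118 and 208 CPM in cKOf mice. The medians of each sex nearly coincided, and the log2 fold change was 0.03 in males (-0.36 to 0.42, edgeR adjusted p = 0.970) and 0.00 in females (-0.39 to 0.39, edgeR adjusted p = 0.999). Tef was 203, 270 and 325 CPM in Ctrlm, 213, 259 and 300 in cKOm, 235, 277 and 420 in Ctrlf and 220, 257 and 269 CPM in cKOf mice. Its log2 fold change was -0.07 in males (-0.32 to 0.18, edgeR adjusted p = 0.864) and -0.23 in females (-0.48 to 0.02, edgeR adjusted p = 0.368). For Nr1d1, Dbp and Tef the intervals of both sexes kept within 0.5 of 0 on the log2 scale.

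**Figure D3:**
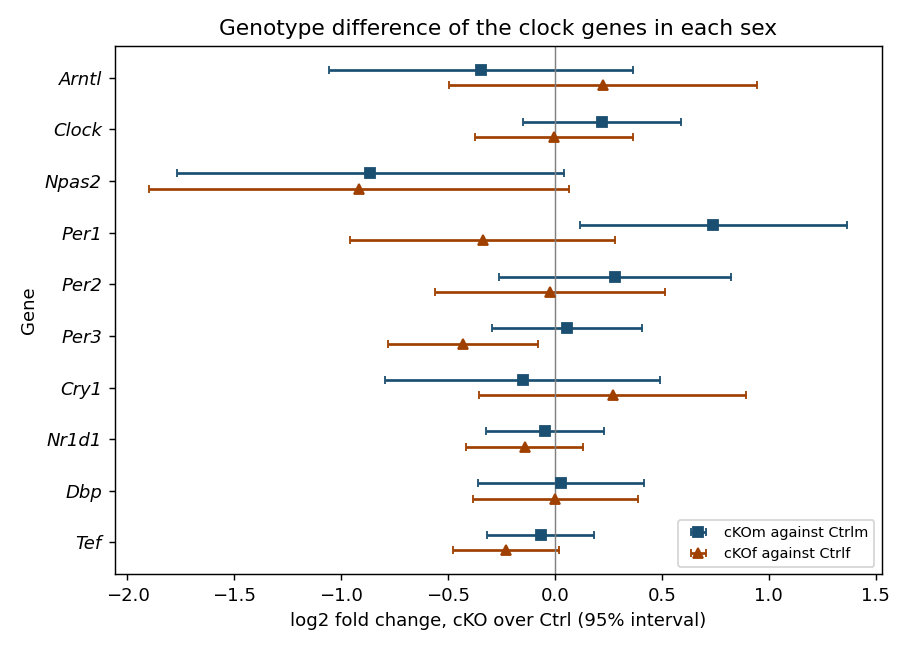
log2 fold change of cKO over Ctrl mice for each clock gene, squares for males and triangles for females, with bars for the 95% interval of the edgeR model. Of the 20 intervals, 18 include 0, and those of Per1 in males (0.12 to 1.37) and Per3 in females (-0.78 to -0.08) do not.

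The sexes were also compared within a genotype. In control mice Nr1d1 was higher in females, with a log2 fold change of 0.48 (0.20 to 0.75, edgeR adjusted p = 0.0131, two-sided exact permutation p = 0.0260) and 5 of 6 Ctrlf mice above the median of Ctrlm. It was the only 1 of 10 clock genes past the threshold, where 16.8% of all genes passed. Before adjustment 6 of 10 had a p under 0.05, against 28.1% of all genes, and they were Npas2, Per1, Per2, Per3, Nr1d1 and Dbp. Of these, Npas2 had a female over male log2 fold change of -1.18 (-2.09 to -0.26, edgeR adjusted p = 0.0719), Per1 of 0.83 (0.20 to 1.45, edgeR adjusted p = 0.0641), Per2 of 0.55 (0.01 to 1.09, edgeR adjusted p = 0.169), Per3 of 0.42 (0.07 to 0.77, edgeR adjusted p = 0.0958) and Dbp of 0.45 (0.06 to 0.83, edgeR adjusted p = 0.115). The two-sided exact permutation test gave p = 0.0519 for Npas2, 0.0519 for Per1, 0.123 for Per2, 0.0887 for Per3 and 0.0541 for Dbp. Arntl had a log2 fold change of -0.66 (-1.38 to 0.05, edgeR adjusted p = 0.220). All 10 of 10 hepatocyte markers were lower in Ctrlf than in Ctrlm mice, and with their level as a covariate Nr1d1 was again the only clock gene called. Markers of several kidney cell types were also higher in Ctrlf mice. The 2 of 2 markers of the thick ascending limb were higher (0.46 for Umod and 0.27 for Slc12a1), with a summed level of 3140 to 3982 CPM in Ctrlm and 4244 to 5402 CPM in Ctrlf mice. So were 1 of 1 of the distal convoluted tubule (0.50 for Slc12a3), 2 of 3 of podocytes (0.58 for Nphs1 and 0.34 for Podxl) and 1 of 3 of the collecting duct (0.43 for Atp6v1b1). Of 5 proximal tubule markers 2 were higher and 2 lower, and 0 of 3 endothelial and 0 of 3 macrophage markers passed (edgeR). The part of cell composition in the Nr1d1 difference was not tested.

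In cKO mice 0 of 10 clock genes passed between the sexes (edgeR), where 8.14% of all genes did, and 4 of 10 had an unadjusted p under 0.05, against 21.7% of all genes. DESeq2 called 1, Nr1d1, and limma-voom 0. Nr1d1 had a female over male log2 fold change of 0.38 (0.11 to 0.66, edgeR adjusted p = 0.0785) and was in 6 of 6 cKOf mice above the median of cKOm. Its difference between the sexes was not shown to depend on genotype (edgeR test of interaction, log2 value -0.10, adjusted p = 0.868). Cry1 had 0.79 (0.16 to 1.42, edgeR adjusted p = 0.117), also with 6 of 6, Npas2 had -1.23 (-2.20 to -0.25, edgeR adjusted p = 0.112), with 0 of 6, and Dbp had 0.42 (0.03 to 0.81, edgeR adjusted p = 0.191). The two-sided exact permutation test, run on each gene by itself, gave p = 0.00433 for Cry1, 0.00866 for Npas2 and 0.0260 for Nr1d1. These 3 of 10 are unadjusted, and the share of all genes under 0.05 in this test was not computed. When the 4 groups were ordered by mean for each gene, 1 of 30 neighbouring pairs had an exact p under 0.05, which was Nr1d1 in cKOf over Ctrlm mice (exact p = 0.0260). These 2 groups differ in both sex and genotype. Neighbours in an order set by the tested values lie close by choice, so the count cannot show that the groups are alike.

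Mice of the same group differed more in 9 of 10 clock genes, all but Tef, than in the median tested gene. The standard deviation within groups was 0.75 on the log2 scale for Npas2, 0.67 for Arntl, 0.61 for Per1, 0.58 for Cry1 and 0.53 for Per2, beside a median of 0.25 over all tested genes. Between 81.1% and 90.8% of tested genes varied less than these 5. Clock, Dbp and Per3 had 0.37, 0.36 and 0.33, above 69.7%, 68.5% and 64.7% of tested genes, while Nr1d1 with 0.26 and Tef with 0.22 lay near the median. These shares take no account of level, and Npas2, Cry1 and Arntl rest on the fewest reads of the 10 genes.

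Several clock genes varied with or against Arntl. After the mean of each group was subtracted, 6 of the 9 other genes were correlated with Arntl over 24 mice past the threshold (Pearson's r, permutation within groups, adjusted over 9 tests). The share of all genes that would pass this test was not computed. Genes outside the clock also had strong r with Arntl, such as Acsf3 (-0.77) and Ppm1h (0.75). Tef ran against Arntl with r = -0.80 (permutation p = 5e-05, adjusted p = 0.00045, Spearman's rho -0.76), Per3 with r = -0.73 (permutation p = 0.0003, adjusted p = 0.00135, rho -0.67) and Per2 with r = -0.66 (permutation p = 0.00072, adjusted p = 0.00216, rho -0.63). Cry1 had r = -0.66 (permutation p = 0.00106, adjusted p = 0.00238, rho -0.58) and Dbp r = -0.61 (permutation p = 0.00344, adjusted p = 0.00571, rho -0.60). Npas2 ran with Arntl, with r = 0.63 (permutation p = 0.00381, adjusted p = 0.00571, rho 0.58). By rho the same 6 genes passed, with adjusted p from 0.00072 to 0.0117. Per1 with r = -0.43 (permutation adjusted p = 0.0542), Clock with 0.32 (permutation adjusted p = 0.288) and Nr1d1 with 0.17 (permutation adjusted p = 0.539) did not pass. Within each of the 4 groups r with Arntl was negative for Per1, Per2, Per3, Cry1, Dbp and Tef, and for Tef it ran from -0.77 in cKOf to -0.93 in cKOm mice.

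**Figure D4:**
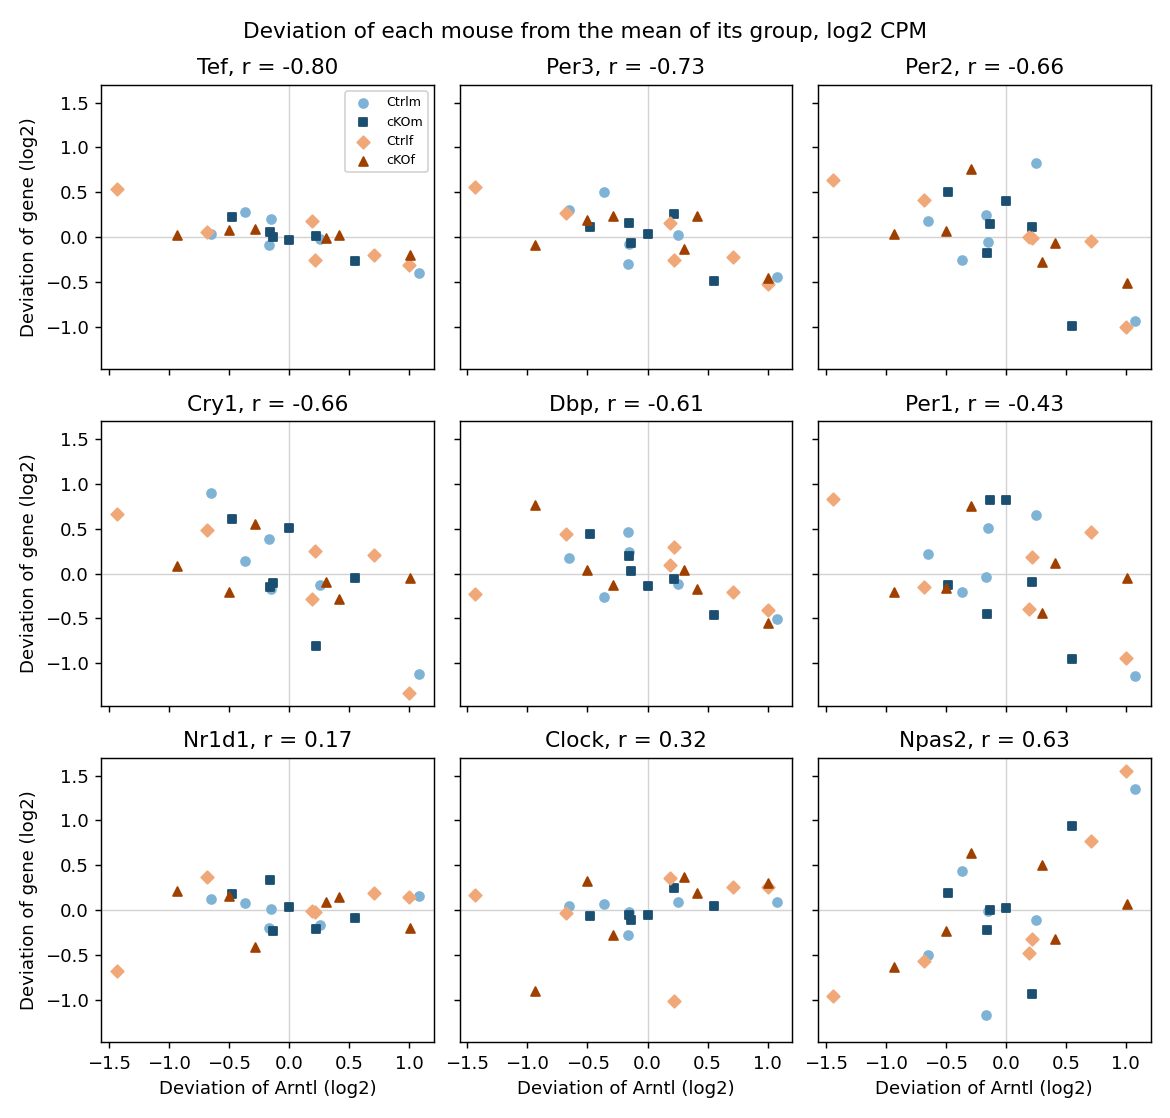
Deviation of each mouse from its group mean in log2 CPM, Arntl on the horizontal axis and another clock gene on the vertical axis of each panel, with colour and shape for the group and Pearson's r over 24 mice above. Points fall from left to right for Tef (r = -0.80), Per3 (-0.73) and Per2 (-0.66), and rise for Npas2 (0.63).

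The mouse highest in Arntl stood at the end of the range in several other clock genes. In each of the 4 groups the mouse with the most Arntl was also the mouse with the least Per2, Per3, Dbp and Tef, and in 3 of 4 it had the least Per1 and the most Npas2. These were Ctrlm replicate 6 (12.98 CPM of Arntl and 203 of Tef), cKOm replicate 3 (7.49 and 213), Ctrlf replicate 2 (7.34 and 235) and cKOf replicate 3 (8.96 and 220). Of the unique reads in these 4 kidneys, 7.56%, 8.42%, 8.30% and 7.85% lay outside genes, which is inside the range of the other kidneys. Without these 4 mice, a choice made after their values were seen, r was -0.67 for Tef, -0.52 for Per3, -0.52 for Cry1, -0.35 for Per2, -0.32 for Dbp and 0.41 for Npas2, and 0 of 9 genes passed over the other 20 mice (permutation adjusted p from 0.0720). This choice also removes the top of the Arntl range in every group. Without Ctrlm replicate 6 alone all 6 genes passed (r = -0.76 for Tef). Without the 2 mice farthest from the median of Arntl, Ctrlf replicate 5 and Ctrlm replicate 6, r was -0.62 for Tef, -0.60 for Per3, -0.53 for Per2, -0.52 for Cry1, -0.80 for Dbp and 0.46 for Npas2, and Npas2 was no longer called (permutation adjusted p = 0.0757).

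Among 11058 genes with a mean of at least 5 CPM, no gene had a lower r with Arntl than Tef. Acsf3 (-0.77), Isoc2a (-0.76) and Srsf2 (-0.76) were also among the lowest. Counted from the lowest, Per3 was at place 9, Per2 at 31, Dbp at 91 and Per1 at 717. Cry1 and Npas2 had means under 5 CPM and were not ranked. Among the highest were Ppm1h (0.75), Pgd (0.75), Eps8l2 (0.74) and Plcl2 (0.72). The pattern of Dbp was most like that of Igfbp4 (r = 0.83), Zmynd10 (0.82), Pink1 (0.78), Hoga1 (0.78) and Mrpl17 (0.77), and least like that of Smad2 (-0.85), Exd2 (-0.80), Rragd (-0.78), Cog5 (-0.77) and Lama4 (-0.75). The 5 genes most like Dbp had r from -0.73 to -0.36 with the share of uniquely aligned reads outside annotated genes, and the 5 least like it from 0.23 to 0.51, and the part of this share in the pattern was not tested. These r values over 24 mice, with group means removed, are descriptions.

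Each kidney also had 2 further measures. A running number from 1 to 24 came with the deposited counts, and what it stands for is not stated. The share of uniquely aligned reads outside annotated genes ran from 6.41% to 9.25%. Over all mice no clock gene passed against the running number (0 of 10, permutation adjusted p = 0.902 for Pearson's r). Within groups of 6 mice r differed in sign, and for Per1 it was 0.85 in Ctrlf and 0.35 in cKOm, but -0.80 in cKOf and -0.76 in Ctrlm mice. Of these 40 values within groups, 2 had an exact permutation p under 0.05, both of Per1 (0.0389 in Ctrlf and 0.0417 in cKOf), and 0 passed after adjustment (lowest adjusted p = 0.833). In Ctrlm mice Tef had r = -0.77 and Per3 r = -0.76 (exact permutation p = 0.0833 and 0.0694). With the share of reads outside genes, Clock had r = 0.78 (permutation adjusted p = 0.0423, rho 0.50). The kidneys with the lowest shares of their groups among females, Ctrlf replicate 4 with 6.65% and cKOf replicate 6 with 6.41%, were those with the least Clock, and without them r was 0.23 (permutation adjusted p = 0.749). Ctrlm replicate 5, with 6.48%, likewise held the least Clock of its group. In males the shares ran from 6.48% to 8.30% in Ctrlm and from 8.30% to 9.25% in cKOm mice, and with the share as a covariate the male log2 fold change of Clock was -0.24 in place of 0.22. Per3 had r = 0.50 with the share (permutation adjusted p = 0.141, rho 0.61) and Tef r = 0.44 (permutation adjusted p = 0.227, rho 0.60), and by rho both passed (permutation adjusted p = 0.0223). With the share removed from every gene, r of Arntl was -0.86 for Tef and -0.81 for Per3, and 8 of 9 genes passed, all but Nr1d1.

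**Figure D5:**
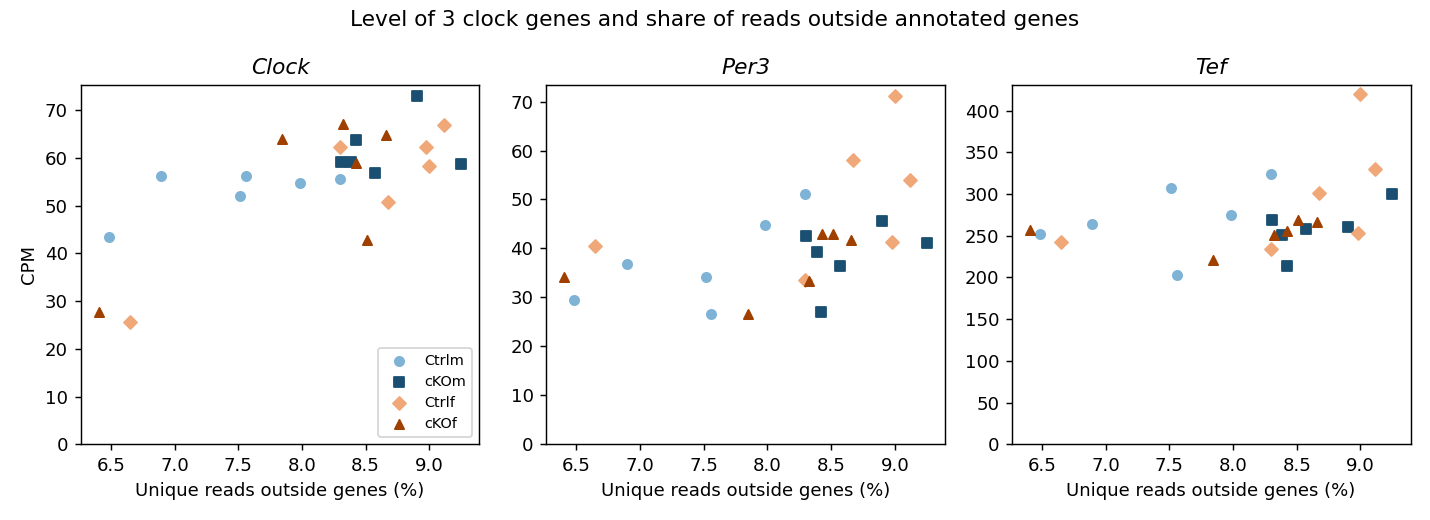
CPM of Clock, Per3 and Tef against the percentage of uniquely aligned reads outside annotated genes, a point for each of 24 kidneys with colour and shape for the group. The lowest levels of Clock, 25.7 CPM in Ctrlf replicate 4 and 27.6 CPM in cKOf replicate 6, lie at shares of 6.65% and 6.41%.

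A list of 20 other clock genes held receptors, D-box repressors, kinases and ubiquitin ligases of the loop. In males 2 of 20 were higher in cKOm mice and 0 lower, beside 4.14% and 4.90% of all genes. Bhlhe40, a repressor that competes for E-boxes, rose by a log2 fold change of 0.34 (0.14 to 0.54, edgeR adjusted p = 0.0363), and Rorb, a receptor of ROR elements, by 1.42 (0.55 to 2.30, edgeR adjusted p = 0.0496). Both calls were lost in 14 of 22 alternatives each, with adjusted p up to 0.136 for Bhlhe40 and 0.186 for Rorb. The level of Rorb was low, from 0.209 to 0.691 CPM in Ctrlm and from 0.765 to 1.91 CPM in cKOm mice. In females 0 of 20 passed (edgeR), beside 0.851% of all genes, and 0 had an unadjusted p under 0.05, against 6.73%. In the interaction 0 of 20 passed, beside 2.31% of all genes. Between the control sexes 4 of 20 were higher in Ctrlf and 1 lower, beside 8.11% and 8.71% of all genes. These were Nfil3, the repressor of D-boxes, with 1.35 (edgeR adjusted p = 0.00555), Bhlhe40 with 0.75 (edgeR adjusted p = 1.8e-06), Bhlhe41 with 0.70 (edgeR adjusted p = 0.0108) and Csnk1e, a kinase of PER proteins, with 0.33 (edgeR adjusted p = 0.0402). The call of Csnk1e was lost in 15 of 20 alternatives (adjusted p up to 0.151), and that of Bhlhe41 in 2. Fbxw11, part of a ubiquitin ligase, had -0.29 (edgeR adjusted p = 0.0162), lost in 1 of 20 alternatives.

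Of 14 genes taken as clock output in the kidney, 0 passed in males and 0 in females (edgeR), beside 9.05% and 0.851% of all genes. Before adjustment 2 and 1 had a p under 0.05, against 25.1% and 6.73% of all genes. The log2 fold changes of the 14 ran from -0.39 to 0.44 in males and from -0.51 to 0.38 in females. Between the control sexes 1 of 14 passed, where 16.8% of all genes did. It was Scnn1a, a subunit of the epithelial sodium channel, with a log2 fold change of 0.45 (edgeR adjusted p = 0.0184). This call was lost in 2 of 20 alternatives.

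Because Per1 and Per2 also respond to hormones and handling, 2 further lists were set beside them. Of 13 immediate early genes, 0 passed in either sex (edgeR), beside 9.05% of all genes in males and 0.851% in females. In males 12 of 13 had a log2 fold change above 0, where 52.2% of all genes did, and in females 10 of 13, where 50.5% did. Their median log2 fold change was 0.35 in males and 0.19 in females. Before adjustment 3 and 1 had a p under 0.05, against 25.1% and 6.73% of all genes. Leaving out a single mouse changed these counts. In cKOm mice replicate 1 was the highest in 13 of 13, with 659 CPM of Egr1 (next 94.1), 143 of Zfp36 (next 62.9) and 28.5 of Fos (next 5.26). In Per1 it was level with replicate 6, at 69.4 and 69.3 CPM, and replicate 6 had the least Fos of the group, 3.56 CPM. Without replicate 1, 7 of 13 were above 0 in males, with a median of 0.0092. With all mice, the medians of cKOm lay below those of Ctrlm mice in 6 of 13. In females 5 of 13 were above 0 without cKOf replicate 5, with a median of -0.050. Of 10 glucocorticoid-induced genes, a list that includes Per1, Fkbp5 was lower in cKOm mice, with a log2 fold change of -0.80 (edgeR adjusted p = 0.0357), beside 4.90% of all genes lower in males. This call was lost in 13 of 22 alternatives (adjusted p up to 0.363), and the value was -0.50 with the share of reads outside genes as a covariate. Mt1 and Mt2, which encode metallothioneins, were higher in cKOf mice, beside 0.391% of all genes, with 0.85 (edgeR adjusted p = 0.0100) and 1.03 (edgeR adjusted p = 0.00102). The part of handling and hormones in the Per1 values was not tested.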

How the data were processed

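Whole kidneys of 24 mice were sequenced from poly(A) RNA with a stranded kit. Per the labels and the study's methods, the authors trimmed reads with cutadapt 1.8, aligned them to GRCm38 with STAR 2.5.3a and counted reads on genes with HTSeq 0.9.1, and they deposited raw counts per gene and kidney. The 5 closing lines of each file, for reads not counted on a gene, were left out of library sizes. Groups came from the labels, and 55154 of 55335 genes were found in GENCODE M21, used for names, lengths and positions.

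The 16092 genes that reached 1 CPM in any kidney were tested in R 4.3.3 with edgeR 4.0.16 (TMM, 1 coefficient per group, quasi-likelihood), limma 3.58.1 and DESeq2 1.42.0 serving as alternatives. The Benjamini-Hochberg adjustment ran over both genotype comparisons together, and over all genes elsewhere, with a threshold of 0.05. log2 CPM used a prior count of 2. Exact permutation tests ran over 924 arrangements, and correlations were permuted 100000 times within groups. Python 3.11.15 with scipy 1.17.1 was used. Tested on simulated data of 15699 genes, 200 of them given a log2 change of 1, the procedure found 163 with 6 false calls in males and 165 with 10 in females.

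The members and lists were chosen with earlier results of these data known. The text names all members, listed clock and output genes past the threshold in the male, female, interaction or control sex test, values of the other lists, and the 5 genes most and least like Arntl and Dbp, of which a few are not reported here. Replicates are separate mice, and the 60 pairs within groups differed beyond counting noise (chi-square over its degrees of freedom, 9.24 to 91.1).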

Additional observations from a re-analysis of the deposited data

Results flagged for a closer look

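In 40 combinations of a clock gene and a group, the gap of the highest or lowest mouse to its nearest neighbour was compared with the range of the group. Of these, 5 exceeded Dixon's critical value for 6 mice, which normally distributed values exceed in about 1 in 20 groups. CPM were used here without a log, so this rate need not hold and 5 of 40 cannot be read as an excess. The genes are also not independent, since Per1 and Per2 had r = 0.79 over mice. In cKOf mice, replicate 2 stood above the other 5 in 3 repressors, with 59.2 CPM of Per1 (next 38.0), 79.3 CPM of Per2 (next 49.3) and 5.37 CPM of Cry1 (next 3.84). In the same group, replicate 6 stood above the others in Dbp, with 208 CPM (next 126). In Ctrlm mice, replicate 5 stood below the others in Clock, with 43.5 CPM (next 52.0). The effect of genotype on Mt2, a metallothionein gene of the glucocorticoid-induced list, differed between the sexes by a log2 value of 1.05 (standard error 0.28, interaction adjusted p = 0.0392 by edgeR). This call held in 15 of 32 alternatives (adjusted p from 0.00374 to 0.343).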

How the results depend on the processing

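In the genotype comparisons and their interaction, 0 of 10 clock genes were called under every alternative run, which were limma-voom, DESeq2, RLE normalization, both filters, each sex alone, adjustment within each sex, the hepatocyte covariate, the share of reads outside genes (added after seeing the data), the replicate block and each mouse left out. Nr1d1 was called between the control sexes in all 20 alternatives, with adjusted p from 0.000686 to 0.0456. The count there was 2 with limma-voom and DESeq2 (Npas2 added), 2 with the share as a covariate (Dbp added) and 1 to 4 with a mouse left out, the highest without Ctrlf replicate 2 (Npas2, Per1 and Per3 added). The count was also 2 without Ctrlm replicate 1 or 2 or 5. Between the cKO sexes DESeq2 called 1, Nr1d1, and leaving out a mouse gave 0 to 1, with Nr1d1 called without cKOf replicate 2 or cKOm replicate 2. The numbers of all genes called between the sexes under each alternative are not given here. A rise in clock genes called therefore cannot be told apart from a rise in all genes called. No pairing by replicate number was seen. Of 12 pairs of same-numbered Ctrl and cKO mice of a sex, 1 had a correlation over 0.1 (from -0.20 to 0.12). In 2 pairs the Ctrl mouse correlated best with the cKO mouse of its own number. A correlation over all genes cannot exclude a pairing that moves few of them. With the replicate block 2 clock genes, Npas2 and Nr1d1, were called between the control sexes, no other count of clock genes changed, and the number of all genes called in males was 1268 in place of 1456.

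Changes of sign of log2 fold changes concerned values of at most 0.22 in size. In males the log2 fold change was -0.24 for Clock and -0.20 for Per3 with the share as a covariate, 0.011 for Nr1d1 and 0.051 for Tef with the hepatocyte covariate, and -0.00040 for Dbp without the filter on low counts. In females it was 0.18 for Clock and -0.10 for Dbp with the share as a covariate, and for Dbp also -0.025 with limma-voom, -0.00073 with DESeq2, -0.00066 with RLE, -0.0061 without the filter and -0.0022 with females fitted alone. With each mouse left out in turn, the male value ran from -0.052 to 0.17 for Per3, -0.34 to 0.077 for Cry1 and -0.091 to 0.13 for Dbp, and the female value from -0.039 to 0.46 for Arntl, -0.16 to 0.13 for Clock, -0.22 to 0.12 for Per2 and -0.20 to 0.10 for Dbp. The cause of these changes was not tested.

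Of the 9 correlations with Arntl, 6 were called with RLE and without Ctrlm replicate 6, 8 with the share removed, 5 without the 2 farthest mice and 0 without the mouse highest in Arntl in each group, which leaves 20 mice. For Nr1d1 the value was -0.090 as rho and -0.40 without the 2 farthest mice. Of the 10 correlations with the share of reads outside genes, 1 was called, 2 by rho (Per3 and Tef) and 0 without the 2 farthest mice. Npas2, Cry1 and Arntl rest on the fewest reads, from 6 per kidney for Npas2, and the part of counting error in their spread was not tested.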
